A study of Mus musculus with 2 samples.

Results

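Mitochondrial ribosomal protein genes are the nuclear genes for the proteins of the ribosome that works inside mitochondria. They were taken as every annotated gene whose symbol is Mrpl or Mrps followed by a number and at most a letter. The rule found 78 genes in the reference annotation, GENCODE release M21, and all 78 had reads in both libraries, among 16945 annotated genes read in either. Their reads were spread over 610 transcript models in replicate 1 and 403 in replicate 2, of 117665 and 62892 models in all.

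The data are long-read RNA sequencing of adrenal gland tissue, in which 1 read can follow an RNA molecule through all its exons. The 2 libraries form a single group: female B6CASTF1/J mice, hybrids of the strains C57BL/6J and CAST/EiJ, aged 36 days, with no treatment named. No contrast between conditions is possible, so levels, isoforms and the difference between the libraries are described. A label gives the same donor for both libraries while another gives different animal numbers, so that the spread between them may be technical. Library preparation of replicate 1 used 1 µg of RNA per the labels.

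Replicate 1 held 1223776 reads and replicate 2 held 453761, of which 1144572 and 414588 fell on annotated genes. Levels are counts per 1000000 such reads (CPM). A long read was taken as 1 transcript whatever its length, so counts were not divided by length. The limit that a count of 0 allows, 3 reads, equals 2.62 CPM in replicate 1 and 7.24 CPM in replicate 2. Intervals are 95% Wilson intervals, and like these limits they cover counting error only. All 7 markers of the adrenal cortex and all 6 of the medulla were read in both libraries. Summed levels were 64044 and 82294 CPM for the cortex list and 9960 and 6751 CPM for the medulla list, in replicates 1 and 2. The 5 kidney markers had 0 reads. The 7 brown adipocyte markers summed to 2745 and 4390 CPM, and the 7 skeletal muscle markers to 934 and 7.24 CPM, with 4 of the 7 muscle markers at 0 reads in replicate 2.

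The mitochondrial ribosome, or mitoribosome, translates the few proteins encoded by mitochondrial DNA, all of them parts of the respiratory chain and the ATP synthase. Its RNAs come from mitochondrial DNA, while its proteins are made in the cytosol and imported. The large subunit joins amino acids and the small subunit reads the messenger RNA. Some of the proteins have counterparts in bacterial ribosomes and others are specific to mitochondria. In the adrenal cortex the first and the last steps of glucocorticoid synthesis take place in mitochondria. By current structural knowledge, 51 of the 78 genes encode proteins of the large subunit, among them Mrps18a and Mrps30 despite their symbols. Another 26 encode proteins of the small subunit. The remaining gene, Mrps36, is now known to encode a part of the 2-oxoglutarate dehydrogenase complex.

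The best-read gene of the group, Mrpl33, had most of its reads assigned to a model that the annotation does not hold. The sequences around its first exons are therefore shown first. Whether the assigned reads have the bases of that model was not tested. Mrpl33 (ENSMUSG00000106918.3, chromosome 5, plus strand, mm10) encodes a small large-subunit protein with a bacterial counterpart. The annotated coding transcript has 4 exons, of which the second, chr5:31614603-31614621, is only 19 bp long. The leading unannotated model has 3 exons, chr5:31613939-31614030, chr5:31616381-31616487 and chr5:31622377-31622637. It lacks the 19-bp exon, and its first exon ends 8 bases further downstream than the annotated 1, which ends at 31614022. The lines below give the plus strand from GENCODE M21 transcripts on GRCm38. In order, they show the end of exon 1 with the 8 added bases in capitals (chr5:31614013-31614040), the short exon in capitals between its introns (chr5:31614598-31614627), and the start in capitals of the exon that both transcripts join to (chr5:31616371-31616390).
Exon 1 end: gctgtctcttGTAAGTCGgtctgaggcg
Short exon: acaagTTGCCAAGAGCAAGTCAAAgtaagt
Next exon: ttgatcttagAACTATCCTG

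The intron begins with GT after either end of exon 1. The 8 added bases and the 19-bp exon share the run AAGTC, 5 bases long. It starts at base 3 of the added bases and at base 12 of the short exon, counted from the 5′ end of each, and 3 bases of the short exon follow it. Spliced, the annotated order reads through the short exon, in capitals in the first line, and the unannotated model through the added bases, in capitals in the second.
Annotated joint: ctcttTTGCCAAGAGCAAGTCAAAaactat
Unannotated joint: ctcttGTAAGTCGaactat
The unannotated joint is 11 bases shorter than the annotated joint. Since 11 leaves a remainder of 2 when divided by 3, the frame is shifted in the model as deposited. The annotated reading frame, which starts in exon 1, does not continue in frame into the next exon of that model.

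The 3-exon model of Mrpl33 had 374 reads in replicate 1 and 252 in replicate 2. That was 83.7% of the gene's reads in replicate 1 (interval 80.0% to 86.8%) and 88.7% in replicate 2 (84.5% to 91.9%). The annotated coding transcript was assigned 0 reads in either library, for which counting error alone allows up to 2.62 and 7.24 CPM. These limits hold for its level only if reads were assigned to the right model, which was not tested. The class the files call NNC is meant for models with at least 1 unannotated splice site. In it this model ranked 2 of 19954 in replicate 1 and 1 of 8094 in replicate 2. The model alone held 1.12% and 2.23% of the reads of that class. Another class, NIC, also holds some models with such a site. Over both classes together it ranked 4 of 35330 and 2 of 14838. Models that contain the 19-bp exon as an exon of its own had 13 reads of 447 in replicate 1, or 2.91% (1.71% to 4.91%), and 9 of 284 in replicate 2, or 3.17% (1.68% to 5.91%).

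The remaining Mrpl33 reads were spread over several starts and joints. A model that leaves the short exon out from the annotated end of exon 1 had 6 and 2 reads. Models with an upstream first exon and no short exon had 35 reads in replicate 1 and 7 in replicate 2. The most read of them, with 3 exons and 23 and 5 reads, starts at chr5:31596935-31597021. With that upstream start and the short exon included there were 5 reads in each library. The 2 annotated retained-intron transcripts that were read had 13 and 3 reads and 4 and 6 reads. The other 9 annotated transcripts of the gene had 0 reads in both libraries. Only reads of the deposited models were counted here, and whether the reads of the leading model carry the bases of the short exon was not tested.

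**Figure D1:**
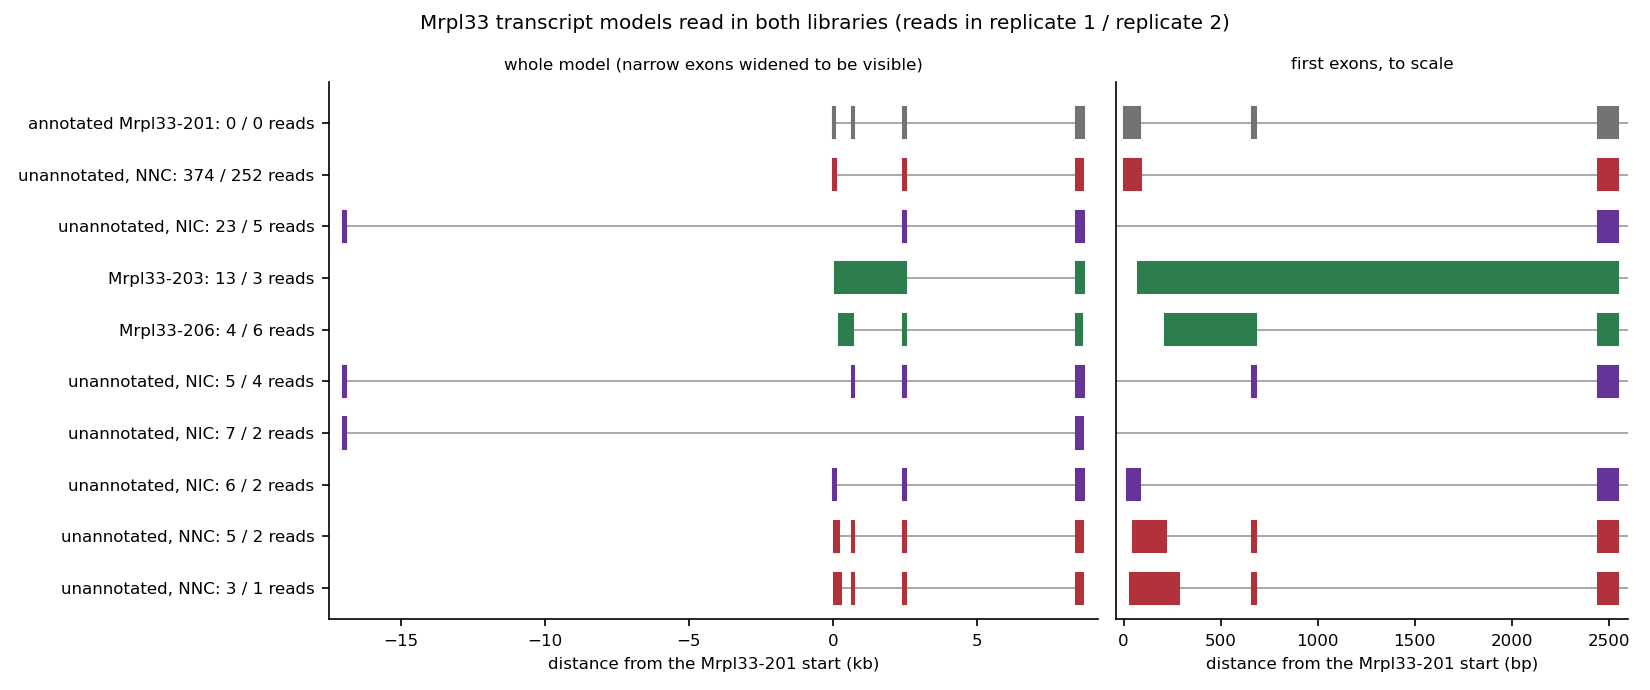
Exons (boxes) and introns (lines) of the Mrpl33 models read in both libraries, by distance from the start of the annotated coding transcript, in kb on the left and in bp for the first exons on the right. Each row gives the reads in replicates 1 and 2. The annotated coding transcript in the top row has the 19-bp exon and 0 reads, and the row below it, with 374 and 252 reads, lacks that exon.

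Short annotated exons recurred among unannotated models of other genes, in a count made after the Mrpl33 values were seen. Over all genes, 55 NNC models had at least 10 reads in each library. Of these, 17 or 30.9%, Mrpl33 included, had an intron spanning an internal exon of at most 25 bp annotated in a coding transcript. The same held for 50 of 4100 annotated spliced transcripts at that depth, or 1.22%. Mrpl33 had the most reads of the 55 models and was the only 1 of the 78 genes among them. In the group, only Mrpl33 and Mrpl4, a large-subunit gene, have an annotated internal exon this short. The 24-bp exon of Mrpl4 (chr9:21005863-21005886) was in 0 reads and was spanned by 168 and 62 reads.

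The 78 genes were of similar level. Their median was 116 CPM in replicate 1 and 123 CPM in replicate 2 (119 ± 5.13, SD, n = 2), and 68 of 78 lay within 2-fold of the median of the gene means. In bulk tissue, a level cannot tell the number of cells from the RNA per cell. Level tended to be lower for longer transcripts. Spearman rho with the length of the most read annotated transcript was -0.315 over the 78 members and -0.238 over 9334 genes. The part of length in the levels was not tested. Summed, the genes held 9514 and 11604 CPM (10559 ± 1478), or 0.951% and 1.16% of the reads of annotated genes. The lower quartile of the gene means was 86.5 CPM and the upper quartile 153 CPM, a 1.76-fold span, while the extremes were 23.2-fold apart. Large-subunit genes had a median of 108 CPM in replicate 1 and 123 CPM in replicate 2, and small-subunit genes 123 and 115 CPM. In all reads, the ratio of these medians was 0.879 and 1.07 (0.977 ± 0.137), with neither subunit the higher in both libraries. In reads of annotated transcripts alone it was 0.888 and 0.929 (0.908 ± 0.0287), with the large subunit slightly lower in both. In the large subunit, the 30 genes with a bacterial counterpart had a median of 112 ± 4.10 CPM and the 21 specific to mitochondria 122 ± 18.9 CPM. In the small subunit these medians were 135 ± 0.555 CPM for 16 genes and 113 ± 13.2 CPM for 10.

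Mrpl33 was the highest at 391 CPM in replicate 1 and 685 CPM in replicate 2 (538 ± 208). Next in order came the large-subunit genes Mrpl30, at 315 and 605 CPM (460 ± 206), and Mrpl24, at 225 and 494 CPM (360 ± 191). Each library had these 3 genes in the same order, while their ranges overlapped across the libraries. Mrps24, the highest small-subunit gene, was at 315 and 384 CPM (349 ± 48.2). It was followed by Mrpl20 at 220 and 306 CPM (263 ± 60.9) and Mrps21 at 197 and 328 CPM. All of these have bacterial counterparts. Mrps34, a small-subunit protein specific to mitochondria, was at 206 and 236 CPM. Mrps14 at 222 and 219 CPM, Mrps7 at 226 and 181 CPM and Mrpl17 at 190 and 205 CPM closed the 10 highest.

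The lowest levels were in the large-subunit genes Mrpl1 and Mrpl19, each with 31 and 8 reads, or 27.1 and 19.3 CPM (23.2 ± 5.51). Mrps2 of the small subunit had 34 and 9 reads (25.7 ± 5.66 CPM) and Mrpl47 of the large subunit 31 and 18 reads (35.3 ± 11.5 CPM). All 4 have bacterial counterparts and were the only members more than 2-fold under the median. Above them lay Mrpl11 at 61.3 ± 4.78 CPM and Mrpl48 at 61.6 ± 1.84 CPM. Close by were Mrpl35 at 63.8 ± 8.69, Mrpl3 at 68.9 ± 8.79, Mrps25 at 69.8 and Mrpl32 at 71.9 ± 4.07 CPM. From Mrpl11 to Mrpl32, neighbouring means differ by less than the larger of their SDs. Mrpl12, whose product sits in the ribosome stalk and is also known to bind the mitochondrial RNA polymerase, was at 133 and 166 CPM. Mrpl58, a peptidyl-tRNA hydrolase built into the large subunit, was at 106 and 147 CPM.

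**Figure D2:**
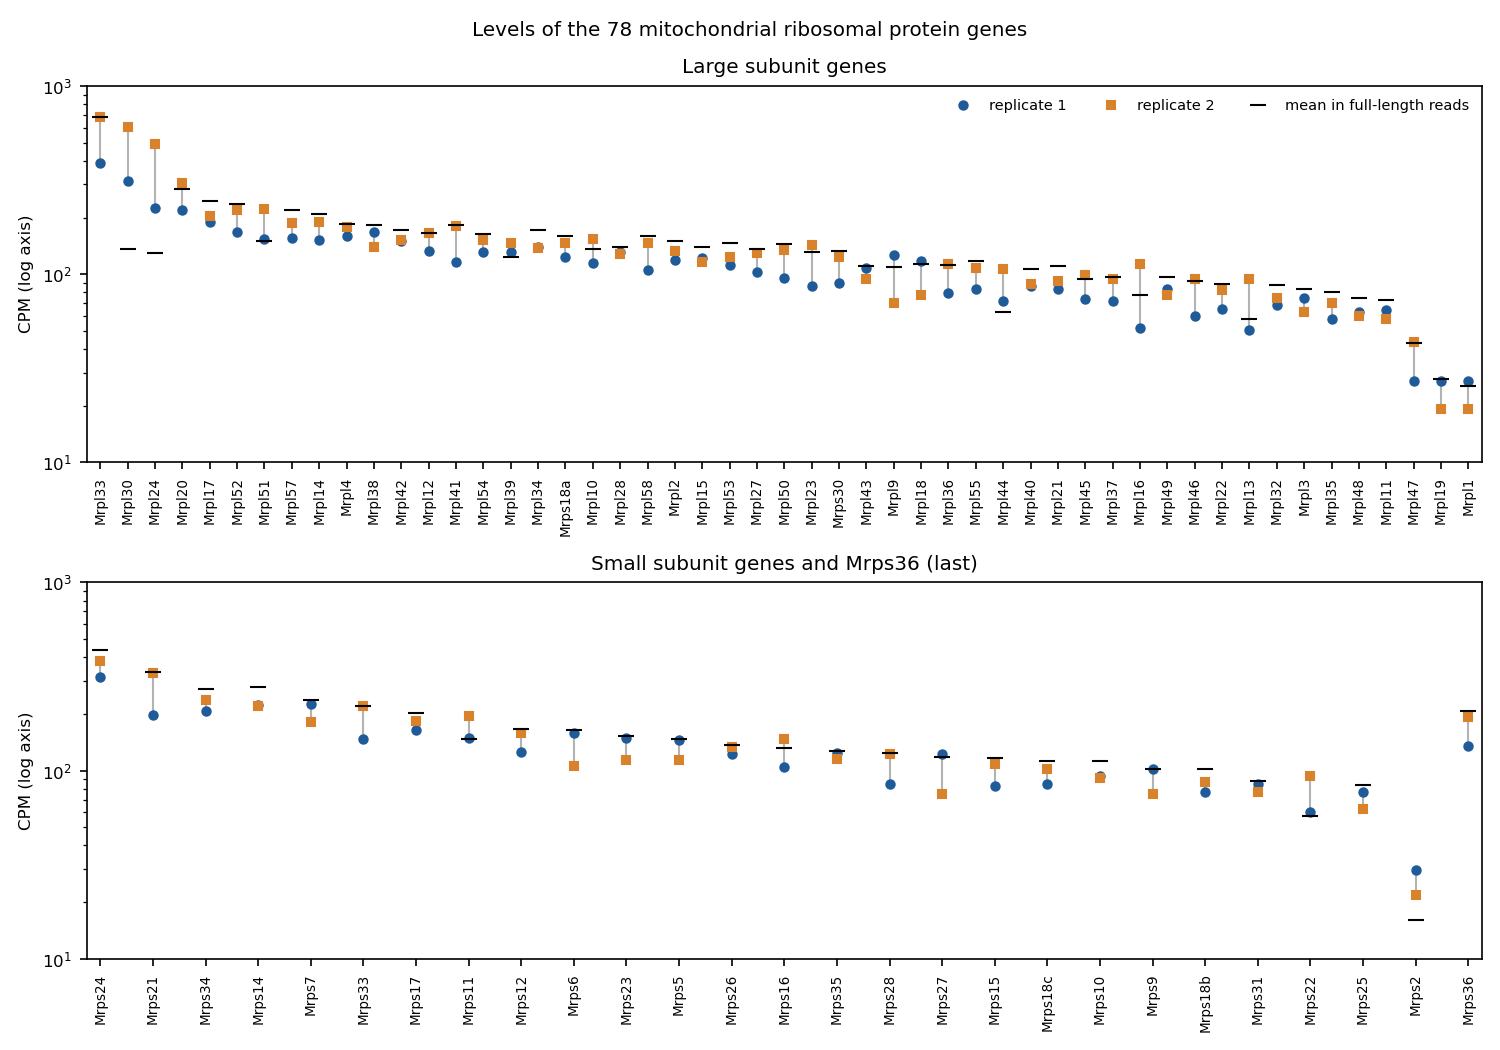
Levels in CPM on a log axis for the large-subunit genes (top) and the small-subunit genes with Mrps36 (bottom), ordered by mean. Points are replicates 1 and 2, and the black dash is the mean CPM of full-length reads. The lower and upper quartiles of the means are 86.5 and 153 CPM, and the dashes of Mrpl30 and Mrpl24 lie far under their points.

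The high levels of Mrpl30 and Mrpl24 came from reads of 1 exon. In these genes the files class such reads as Genomic, while in other members some are classed otherwise. In Mrpl30, 256 of 360 reads in replicate 1 and 200 of 251 in replicate 2 were of this kind, 71.1% (66.2% to 75.6%) and 79.7% (74.3% to 84.2%). They formed models inside the last exon of its leading annotated transcript, at chr1:37898165-37898338 in replicate 1 and chr1:37898125-37898338 in replicate 2. In Mrpl24, 141 of 257 and 162 of 205 reads were Genomic, 54.9% and 79.0%. Their model is listed with a length of 1 bp, at position 87923316 of chromosome 3 inside the last exon, so the extent of these reads is not known from the files.

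Full-length reads are those of annotated transcripts (Known) and of NIC and NNC models. The class NIC is meant for new combinations of known splice sites, though some of its models hold an unannotated site. Among full-length reads, Mrpl30 stood at 111 and 163 CPM of such reads and ranked 37 of 78. Mrpl24 stood at 122 and 137 and ranked 42. Mrpl33 was again first, at 477 and 895 CPM of full-length reads (686 ± 296), followed by Mrps24 at 438 ± 82.9, Mrps21 at 334 ± 136 and Mrpl20 at 282 ± 38.2. Mrps2 was the lowest at 22.4 and 9.56. Over all members, 23 distinct 1-exon models in 21 genes had at least 10 reads in a library. Of these, 19 lay inside the last exon of the leading annotated transcript, all 23 overlapped it, and 3 are listed with a length of 1 bp.

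A few other members had a high share of incomplete reads. The class ISM holds models that match a consecutive part of an annotated chain of junctions. ISM reads made up 34.1% and 38.04% of the reads of Mrpl51, 24.0% and 36.1% of Mrpl39, 28.0% and 54.5% of Mrpl44, 22.4% and 46.2% of Mrpl13 and 17.4% and 56.4% of the small-subunit gene Mrps22. These 5 genes were picked after their values were seen. In Mrps11, 48 Genomic and 1 ISM reads in replicate 1 stood against 0 Genomic and 29 ISM reads in replicate 2. The leading 1-exon models of these classes overlap in the last exon.

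Over the whole group, 81.6% of reads in replicate 1 (80.9% to 82.3%) and 74.6% in replicate 2 (73.4% to 75.8%) were Known, against 75.5% and 69.8% over all annotated genes. ISM reads were 4.69% and 6.61%, against 11.8% and 16.2% over all genes, and reads of 1 exon were 8.55% and 14.5%, against 13.5% and 19.2%. The members have shorter transcripts than the rest, with a median of 1302 bp and 5 exons for the leading annotated transcript, against 2485.5 bp and 8 exons over 9334 genes, and the part of length in these shares was not tested. NNC reads were 5.40% and 6.98%, above the 2.93% and 2.72% of all genes, but without Mrpl33 they were 1.93% and 1.75%, below it. Genomic reads were 6.20% and 10.2%, against 6.30% and 8.07% over all genes, and without Mrpl24 and Mrpl30 they were 2.71% and 2.99%. Mrpl33 thus held much of the NNC share, and Mrpl24 and Mrpl30 much of the Genomic share. No gene was left out of the shares over all genes.

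**Figure D3:**
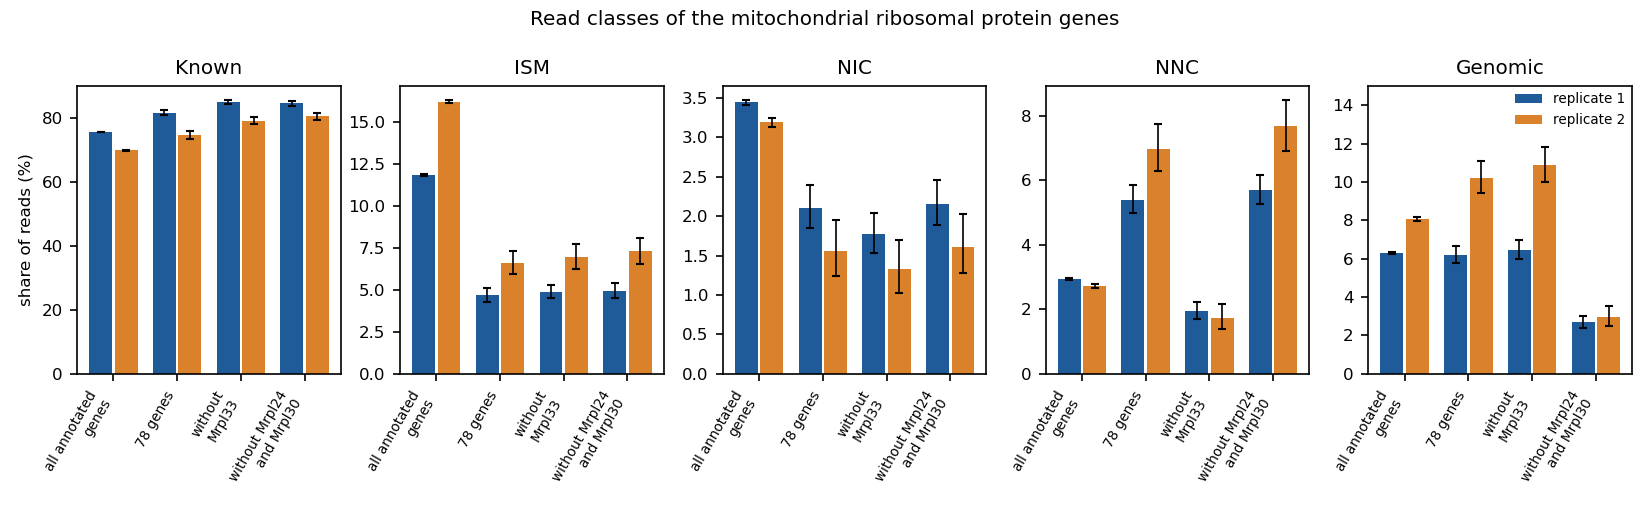
Share of reads in each class of transcript model, in percent, for all annotated genes, the 78 genes, and the 78 without Mrpl33 or without Mrpl24 and Mrpl30. Bars are replicates 1 and 2 and error bars are 95% Wilson intervals. NNC falls from 5.40% and 6.98% to 1.93% and 1.75% without Mrpl33, and Genomic to 2.71% and 2.99% without Mrpl24 and Mrpl30.

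Most members used a leading isoform. Leading shares were taken for the 73 members whose full-length reads numbered 20 or more in both libraries. Of these, 44 had a leading model with at least 90% of those reads in both, and over all genes this held for 1561 of 3015. The median leading share was 93.02% in replicate 1 and 92.9% in replicate 2, close to the 92.7% and 92.3% over the 3015 genes. Mrpl16, Mrpl34, Mrpl35 and Mrpl46, all of the large subunit, had every full-length read in a single annotated transcript in both libraries, over 29 to 156 reads a library.

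In 5 of the 73 members the leading model held under 70% in both libraries, which was so for 430 of the 3015 genes. The leading transcript of Mrpl24 held 57 of 114 full-length reads in replicate 1 (interval 41.0% to 59.0%) and 20 of 43 in replicate 2, 46.5% (32.5% to 61.1%), and the next had 30 and 16 reads. In Mrpl30 the leading transcript, of 969 bp, held 62.5% and 52.9%, and a coding transcript of 662 bp held 28 and 15 reads. For the large-subunit gene Mrpl55 these shares were 59.8% and 58.1%, and 3 further annotated coding transcripts had 2 to 13 reads a library. In the small subunit, Mrps10 was divided between coding transcripts of 1018 bp, with 42 and 18 reads, and 1017 bp, with 44 and 14 reads. The leading transcript of Mrps17 held 80 of 169 reads, 47.3% (40.0% to 54.8%), and 43 of 70, 61.4% (49.7% to 72.0%). In each of these genes the intervals of the libraries overlap.

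No member was called for a different leading share between the libraries. A two-sided Fisher exact test with Benjamini-Hochberg adjustment called 0 of 73 members, where it called 1.03% of 3015 genes. Before adjustment, 196 of the 3015 genes were below 0.05, and 2 of the 73 members. The 2 members were Mrps12, a small-subunit gene close to the decoding site, and Mrpl33. The leading transcript of Mrps12 held 96 of 137 reads (70.1%) and 53 of 59 (89.8%), while another annotated transcript held 33 and 6 reads (Fisher exact p = 0.00318, adjusted p = 0.218). For Mrpl33, the leading share of full-length reads was 83.7% and 89.7% (Fisher exact p = 0.0279, adjusted p = 0.668).

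**Figure D4:**
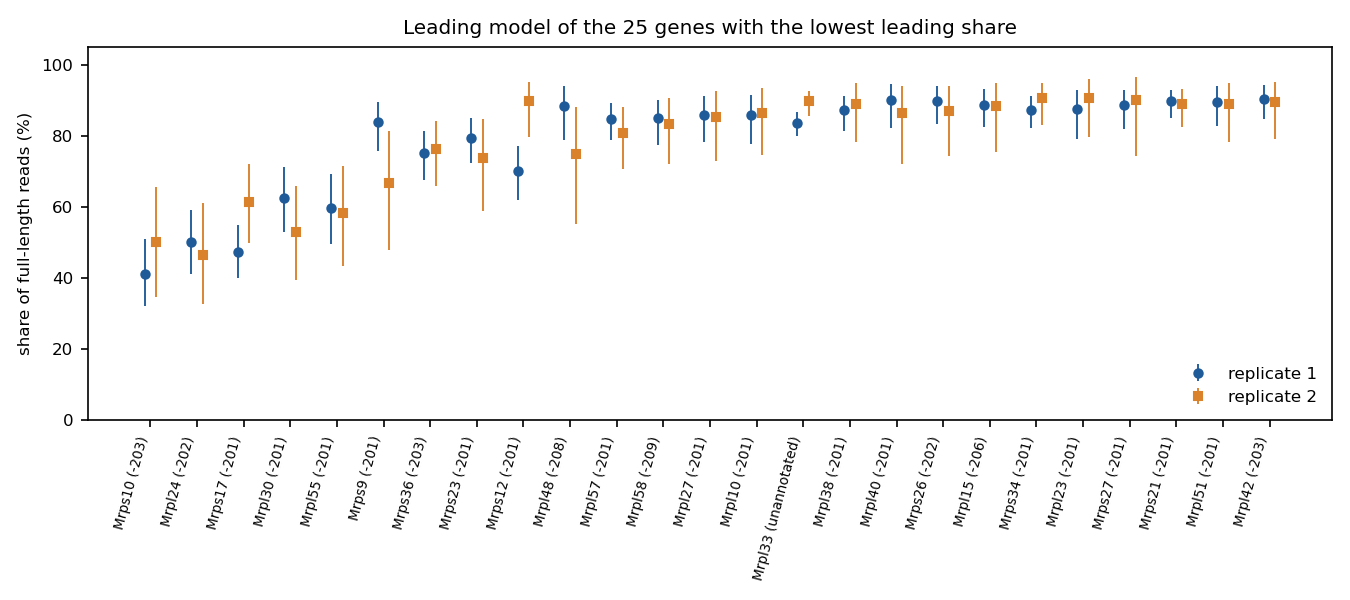
Share of full-length reads, in percent, in the leading model of the 25 members with the lowest mean share among the 73 tested. Points are replicates 1 and 2 with 95% Wilson intervals. Mrps10, Mrpl24, Mrps17, Mrpl30 and Mrpl55 lie under 70% in both, and the intervals of the libraries overlap in each of them.

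Beyond Mrpl33, unannotated spliced models were of low abundance. There were 227 unannotated spliced models of members in replicate 1 and 126 in replicate 2, of which 153 and 101 had 1 read. Without Mrpl33 they held 387 and 139 reads. A model was called recurrent when the same intron chain had at least 2 reads in a library and at least 1 in the other, and 38 models in 25 genes met this, 22 NIC and 16 NNC. At 5 or more reads in total there were 27 models in 17 genes. Of the 22 NIC models, 9 combined only annotated junctions. Of the 16 NNC models, 14 had a single unannotated splice site, and in 7 every such site lay within 10 bp of an annotated site.

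After Mrpl33, the most read recurrent model was a 3-exon NIC form of Mrps17 with 16 and 2 reads, or 9.47% and 2.86% of full-length reads. A 6-exon NIC form of Mrps10 had 11 and 2 reads, and a 12-exon form of Mrps27, a small-subunit gene specific to mitochondria, had 12 and 1. Mrpl27, of the large subunit, had a 3-exon form with 7 and 4 reads, 6.19% and 8.33% of full-length reads. Mrpl10, whose protein anchors the stalk of the large subunit, had an NNC form with 7 and 2 reads whose unannotated site lies 2457 bp from the nearest annotated 1. The small-subunit gene Mrps14 had a pair of 3-exon NNC models, with 6 and 1 and with 4 and 1 reads, each with an unannotated site 4 bp from an annotated site. Recurrent models of 5 to 9 reads in total were also seen in Mrps36, Mrpl57, Mrps9, Mrpl24, Mrpl55, Mrps34, Mrpl23, Mrpl52, Mrpl53 and Mrps33. At such counts the difference between the libraries cannot be read.

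The members' levels were mostly somewhat higher in replicate 2. The median log2 ratio of replicate 2 to replicate 1, on TMM-scaled CPM with a pseudocount of 1, was 0.30 over the 78 genes, with 59 positive and 19 negative, against -0.01 over all 9885 genes tested. A two-sided exact binomial test of each gene's reads, adjusted by Benjamini-Hochberg over all genes tested, called 12 members higher and 1 lower in replicate 2. Over all genes it called 14.0% in either direction, 7.86% higher and 6.13% lower, and over members 16.7%, 15.4% and 1.28%. The spread assumed by this test is that of read counting in this pair of libraries, not that between animals.

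Of the 13 called members, 6 were called under every alternative tried, all higher in replicate 2. These were Mrpl33, with 447 and 284 reads (log2 ratio 0.88, exact binomial adjusted p = 3.84e-13), the small-subunit genes Mrps21, with 225 and 136 reads (0.81), and Mrps33, with 168 and 91 (0.65), and the large-subunit genes Mrpl16, with 59 and 47 (1.19), Mrpl23, with 99 and 59 (0.78), and Mrpl41, with 133 and 75 (0.71). Mrpl23 has an annotated pseudogene, Mrpl23-ps1, and reads could be split between them, so its level is uncertain. Calls for Mrpl24 (log2 ratio 1.21) and Mrpl30 (1.01) did not hold in full-length reads, where the log2 ratios were 0.18 (exact binomial adjusted p = 0.737) and 0.56 (adjusted p = 0.119). Mrpl20, Mrpl51 and Mrpl13 were likewise not called in full-length reads, at log2 ratios of 0.29, 0.51 and 0.48 (exact binomial adjusted p = 0.30, 0.144 and 0.461). Mrps36 (0.58) lost the call with total reads as the scaling and without a read minimum. Mrpl9, a large-subunit gene with 145 and 29 reads, was the only member called lower (-0.78, exact binomial adjusted p = 0.0493), and lost the call without a read minimum.

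**Figure D5:**
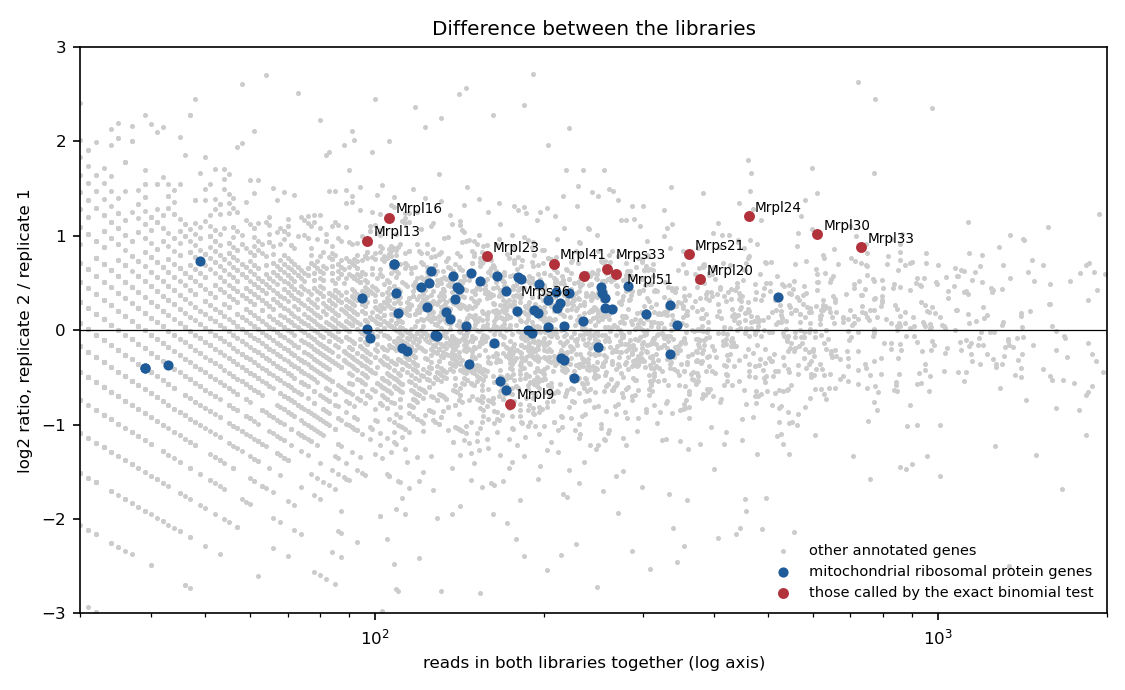
Log2 ratio of replicate 2 to replicate 1 against reads in both libraries together (log axis), for all annotated genes (grey), the 78 genes (blue) and the 13 of them called by the exact binomial test (red, named). The axes are limited to the range of the members, and 59 of the 78 lie above 0.

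The median log2 ratio was highest in the shortest length class for all genes. Among members it was highest in the 2 to 3 kb class, of 9 genes. The rank correlation of ratio and length was stronger among members. Spearman rho of transcript length and ratio was -0.08 over 9334 genes and -0.32 over the 78 members. Over all genes, the median log2 ratio was 0.35 where the leading annotated transcript was up to 1 kb long, -0.04 from 1 to 2 kb, -0.15 from 2 to 3 kb and -0.03 above 3 kb. Among members these medians were 0.40 over 26 genes, 0.22 over 27, 0.50 over 9 and 0.01 over 16. In the shortest class 21.8% of all genes were called higher, and 6 of the 26 members. Of the brown adipocyte markers, 3 of 6 tested were called higher in replicate 2, and 0 lower. Ucp1, the defining gene, was not called, at 787 and 671 CPM. All 6 skeletal muscle markers tested were called lower. Of the 6 medulla markers, 3 were called lower, Th, Chga and Chgb, and 0 higher. Of the 7 cortex markers, Cyp11a1 (log2 ratio 1.06) and Hsd3b1 (0.23) were called higher, and Star (-0.21) and Mc2r (-0.94) lower. The part of length, of depth and of these tissues and cell types in the members' ratios was not tested.

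Other genes of mitochondrial translation were called in both directions, and their counts stand beside the 7.86% higher and 6.13% lower over all genes. Of the 5 mitoribosomal proteins whose symbols fall outside the rule, 2 were called higher and 0 lower. Gadd45gip1, a large-subunit protein, had 306 and 276 reads (log2 ratio 1.38, exact binomial adjusted p = 3.73e-27), and Chchd1, a small-subunit protein, 95 and 54 (0.71, adjusted p = 0.0367). Aurkaip1 had 274 and 118 reads, Dap3 103 and 34 and Ptcd3 71 and 25, none of them called. Of 16 translation factors tested, 1 was higher and 1 lower. Slirp, which stabilises mitochondrial messenger RNAs with Lrpprc, had 191 and 140 reads (1.08). Tufm, the elongation factor that brings transfer RNAs to the ribosome, had 251 and 41 (-1.07). Of 21 assembly factors tested 0 were called by the exact binomial test, and 22 mitochondrial tRNA synthetase and amidotransferase genes gave 1 higher, Sars2 with 9 and 12 reads, and 1 lower, Yars2 with 88 and 14. The factor, assembly and synthetase lists had lower medians than the members. These were 39.8 ± 1.75 CPM for the factors, 28.9 ± 1.70 for assembly and 36.0 ± 13.4 for the synthetases. The 5 mitoribosomal proteins outside the rule had a median of 110 ± 28.5 CPM.

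Promoter windows of the members were searched for short motifs. The windows, from RefSeq on GRCm38.p6, run from 250 bases before to 50 after a gene's start, and 69 of the 78 genes matched, with 75 windows. Nuclear genes for mitochondrial proteins are known for sites of NRF1 and of ETS factors such as GABP. The ETS letters CCGGAAG were found on either strand in 26 windows of members, 34.7%, against 8.86% of all 32851 windows and 18.9% of the windows of genes tested here. The letters GCGCATG, the start of the palindromic NRF1 motif, were in 8 windows, 10.7%, against 3.91% and 7.19%, and ATGGCGG, of the YY1 motif, in 13, 17.3%, against 4.05% and 8.67%. The Sp1 letters GGGCGG were in 52.0%, against 35.7% and 64.8%. CCAAT was in 40.0%, against 37.4% and 37.6%, and TATAAA in 6.67%, against 13.6% and 6.84%. Matches of different motifs may overlap. A match is a description of letters, not of binding.

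The ETS, NRF1 or YY1 letters were in a matched window of 37 of the 69 matched members. Of the 10 most abundant members, Mrpl33, Mrps21 and Mrpl17 had such a window. For these genes, 30 bases around the match nearest to the start are shown 5′ to 3′ on the gene's strand with matches in capitals. The window of Mrpl33 (chr5:31613938-31613967, plus strand) holds the NRF1 and the ETS letters side by side at the start of the leading model. Those of Mrps21 (chr3:95871477-95871506, minus strand) and Mrpl17 (chr7:105811079-105811108, minus strand) hold the ETS letters on the opposite strand and the NRF1 letters, respectively.
Mrpl33: cGCGCATGccCCGGAAGtagtcgttgagct
Mrps21: gtagcttccgCTTCCGGtccgcagagaccc
Mrpl17: ccgagttactGCGCATGcgtcctctgagac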

How the data were processed

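The authors deposited, per library, a table of counts of whole reads per transcript model, without normalization, and an annotation of the models' exons. Per the file headers the models and their classes come from TALON, and per the accompanying notes the genome is mm10 with GENCODE M21. The aligner, tool versions, filters and the handling of reads that match near-identical genes are not stated in the labels or files used here. Exon numbers and lengths in bp are as deposited.

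Gene counts were sums over models, and CPM used reads of annotated genes without spike-ins. Scaling used TMM factors of 1.03 and 0.976 from edgeR 4.0.16 on genes with at least 10 reads, with DESeq2 size factors as an alternative. A two-sided exact binomial test compared the libraries for 9885 genes with at least 10 reads, and a two-sided Fisher exact test compared leading shares for 3015 genes. Both were adjusted by Benjamini-Hochberg, with a threshold of 0.05, and were tested on simulated data. The simulated data had counting error only, so they cannot show how the tests behave under other spread between libraries. Unannotated models were matched between libraries by intron chain, since identifiers are numbered per library.

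Members, lists and alternatives were chosen with earlier results of these data known. Genes named were the 10 highest and 10 lowest members, called members, members with recurrent models of at least 5 reads, divided isoforms, called list genes and genes chosen after their values were seen, marked so. Map1d and Wbscr16 of the lists were not matched by symbol. Of the members, 36 overlap an annotated gene on the opposite strand and 13 on the same strand. Python 3.11.15 and SciPy 1.17.1 were used.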

Additional observations from a re-analysis of the deposited data

Results flagged for a closer look

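Reads at a pseudogene of a member and at loci antisense to another member were found in both libraries. They are not part of the members' counts. The pseudogene Mrpl23-ps1 had 58 reads in replicate 1 and 32 in replicate 2, or 63.9 ± 18.7 CPM, of which 57 and 32 were full-length, against 99 and 59 for Mrpl23. Antisense loci at the small-subunit gene Mrps6 had 28 and 9 reads, against 182 and 44 for Mrps6.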

How the results depend on the processing

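No paired analysis was possible because the 2 libraries form a single group and each replicate number occurs once. The median level of 119 CPM was 110 per 1000000 of all reads, 129 in full-length reads, 132 in Known reads and 127 in models of more than 1 exon, the last chosen after seeing the data. The Known share was 90.7% of full-length reads and 88.5% as the median over members. The subunit ratio was 0.908 in Known reads, 0.963 in full-length reads and 0.968 in models of more than 1 exon. In each of these settings it was under 1 in both libraries. Recurrent models numbered 22 when 2 reads were asked of each library, against 38. Leaving out a replicate gave 116 to 123 CPM for the median, 9514 to 11604 CPM for the sum, 0.879 to 1.07 for the subunit ratio and 74.6% to 81.6% for the Known share, with 78 members read in each. The other alternatives gave 11 to 14 members called between the libraries, against 13, and 0 with a changed leading share. Of the 13 called members, 7 lost the call under at least 1 alternative, and 6 others were called only under an alternative. The median log2 ratio ranged from 0.23, with total reads as scaling, to 0.36, without Genomic reads, and stayed positive. Total reads as scaling moved the median of all genes to -0.08. Replicate 2, with 2.76-fold fewer annotated reads, limits what the low genes and models can show.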

Other observations

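Other genes with recurrent NNC models over a short annotated exon were chosen after their values were seen. Idh3g, a subunit of the mitochondrial isocitrate dehydrogenase, had such a model over a 12-bp exon with 382 reads in replicate 1 and 96 in replicate 2. Chmp1a, of the endosomal sorting machinery, had a model over a 20-bp exon with 272 and 19 reads, and Suds3, of a histone deacetylase complex, a model over a 20-bp exon with 162 and 46. Rps24, a protein of the cytosolic ribosome, had such a model over a 20-bp exon with 59 and 22 reads.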
